A study of Mus musculus with 3 samples.

Results

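The unfolded protein response and secretory load genes described here are 36 named genes, of 32245 gene symbols counted, that fold, modify, move and dispose of proteins in the endoplasmic reticulum (ER), together with the sensors that control them. They were chosen by name. Their levels were measured by 10x single-cell RNA sequencing of mouse colon, in 3 libraries of cells from germ-free mice: 1 from mice given PBS, 1 from mice colonized with BT WT and 1 from mice colonized with BT mutant. What BT and the mutation stand for, the mouse strain and age, the time of colonization and the number of animals in a library are not in the labels. All 3 groups share the germ-free origin, and the PBS library holds cells of mice left without bacteria. Each group has 1 library, so no difference between groups has a replicate check, no test was made, and condition and library cannot be told apart.

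The ER is where secreted and membrane proteins enter through the Sec61 translocon, fold with the help of chaperones such as BiP (the product of Hspa5) and form disulfide bonds. When unfolded protein builds up, the sensors IRE1, PERK and ATF6 raise chaperones and degradation machinery through the transcription factors XBP1, ATF4, CHOP (Ddit3) and ATF6 itself. Signalling from PERK also slows protein synthesis. Goblet cells, which make the large disulfide-linked mucin MUC2, and antibody-secreting plasma cells are known for a heavy secretory load. IRE1 has a second form, IRE1β (Ern2), known from mucus-secreting epithelia. The 3' end counts used here cannot show the splicing of Xbp1 RNA, the phosphorylation of PERK or the cleavage of ATF6, so every value is a level of RNA and not the activity of a sensor.

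ATF6 and XBP1 are known to act through short promoter elements, and the promoters that hold one are shown because several of these genes carry the differences described further on. A RefSeq promoter, from 250 bases before to 50 bases after the start site (GRCm38.p6), was found for 30 of the 36 members. The ER stress response element, which is CCAAT and CCACG with 9 bases of any kind between them, searched on both strands, was present in 9 of these 30 promoters, or 30% (Calr, Canx, Creld2, Derl3, Dnajc3, Hsp90b1, Hspa5, Pdia6 and Syvn1). It was present in 39 of all 32851 promoters of that length, or 0.119%. The second form, ATTGG and CCACG with 1 base between them, was present in 2 member promoters (Dnajb11 and Herpud1) and in 0.0365% of all promoters. The XBP1 element TGACGTGG and the ATF4 element TGATGNAAT were in 0 of the 30, against 0.676% and 0.965% of all promoters. The matches of different motifs did not overlap in any member. A match is a run of letters and no evidence that a factor bound there. The regions printed are Hspa5 at chr2:34771840-34772089 on the plus strand, Hsp90b1 at chr10:86705518-86705671 on the minus strand, Calr at chr8:84847060-84847108 on the minus strand, Canx at chr11:50325785-50325833 on the minus strand, Pdia6 at chr12:17266476-17266524 on the plus strand, Dnajc3 at chr14:118937812-118937860 on the plus strand, Syvn1 at chr19:6046517-6046565 on the plus strand, and Herpud1 at chr8:94386362-94386402 on the plus strand. Capitals mark the element, which starts with CGTGG and ends with ATTGG where it lies on the other strand. Hspa5 is shown over all 250 bases before its RefSeq start site, Hsp90b1 over the stretch that holds its 2 elements, and the others with 15 bases on each side. The GENCODE position of Hspa5, given further on, starts at chr2:34771970, which is within the printed stretch and before the marked element.
Hspa5: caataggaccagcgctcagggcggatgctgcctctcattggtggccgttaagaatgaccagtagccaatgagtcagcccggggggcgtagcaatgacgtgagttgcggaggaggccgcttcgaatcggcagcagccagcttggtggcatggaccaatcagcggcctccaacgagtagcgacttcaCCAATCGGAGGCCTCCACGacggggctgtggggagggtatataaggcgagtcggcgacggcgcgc
Hsp90b1: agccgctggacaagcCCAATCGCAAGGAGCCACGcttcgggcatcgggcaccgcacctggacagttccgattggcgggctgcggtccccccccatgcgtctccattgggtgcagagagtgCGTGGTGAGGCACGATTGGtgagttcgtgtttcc
Calr: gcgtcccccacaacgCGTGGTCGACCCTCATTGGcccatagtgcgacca
Canx: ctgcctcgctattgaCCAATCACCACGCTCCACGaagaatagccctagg
Pdia6: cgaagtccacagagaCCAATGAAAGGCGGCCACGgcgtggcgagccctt
Dnajc3: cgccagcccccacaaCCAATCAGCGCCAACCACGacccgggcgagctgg
Syvn1: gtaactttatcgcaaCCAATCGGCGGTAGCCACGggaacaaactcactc
Herpud1: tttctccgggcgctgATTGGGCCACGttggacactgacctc

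The cells were sorted into classes by marker genes, with the 36 genes and the other ER genes used here held out of the clustering and of the markers. After barcodes with under 300 genes or over 25% mitochondrial UMIs were removed, 3198, 7070 and 6138 cells remained for PBS, BT WT and BT mutant, of 4425, 8829 and 8195 barcodes. The files held 42003444, 55436776 and 54943483 UMIs. Goblet-like cells numbered 146, 829 and 107, colonocyte-like cells 390, 3250 and 3039, B-like cells 1036, 1454 and 1206, and fibroblast-like cells 143, 210 and 364. The libraries were unlike in ways that touch every comparison. The PBS colonocyte-like cells were far deeper, with a median UMI count of 24762 per cell where BT WT had 3964 and BT mutant 3385, and 362 of those 390 cells formed 1 cluster, whereas different clusters held most of the class in the other libraries. Markers of colonocytes summed to 7135, 14076 and 7799 CPM (UMIs of the gene or list per 1000000 UMIs of the class) in the goblet-like cells, in the order PBS, BT WT, BT mutant. Markers of fat cells summed to 150.6, 6.32 and 6.13 CPM there, and markers of stem and transit-amplifying cells to 455, 169 and 253. The part of these lists in the results was not tested. No pair of libraries shared more than 19 barcodes.

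Every level below is given in CPM of a class's summed UMIs, in the order PBS, BT WT, BT mutant. A ratio is log2((CPM + 10)/(CPM + 10)), which understates the difference of weakly expressed genes, and a gene was counted as higher or lower when this ratio reached 1.5-fold. Folds are of CPM without the added 10, with an exact 95% binomial interval. The intervals, and the exact Poisson intervals behind the levels, cover counting error only and not the spread between animals. A gene entered a comparison with at least 20 UMIs over both sums.

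Over the 6 classes with at least 50 cells in each library (goblet-, colonocyte-, B-, fibroblast-, T- and myeloid-like), 14 of the 36 genes had their highest mean level in goblet-like cells, 10 in myeloid-like, 7 in fibroblast-like, 3 in colonocyte-like, 1 in B-like and 1 in T-like cells. For 2 of the 14, Ern2 and Pdia5, the 3 goblet-like values lay above all 3 values of the next class. The same held for 4 of the 10 in myeloid-like, 2 of the 7 in fibroblast-like and 1 of the 3 in colonocyte-like cells. The shares over all genes were not computed, so these counts have no background. Ern2 was at 213.6, 249.0 and 286.6 CPM in goblet-like cells, at 3.20, 4.17 and 2.56 in colonocyte-like cells and at no more than 6.90 in any library of the B- and fibroblast-like cells. Pdia5, a protein disulfide isomerase, was at 123, 36.1 and 90.4 CPM in goblet-like cells and at 0.758, 0.758 and 0.564 in colonocyte-like cells. These 2 members thus set the summed goblet-like class apart from the other classes ranked here. For Pdia5 this did not hold for each kind of goblet-like cell, described further on. In BT WT it was at 13.6 CPM in the Clca1/Zg16-led cells and 4.13 in the cells rich in colonocyte RNA. Myeloid-like cells, the next class, had 8.21 to 12.8 CPM. Hspa5 was broader: its goblet-like levels of 520.1, 289.9 and 426 CPM overlapped the fibroblast-like levels of 595, 626 and 467 and lay below the myeloid-like levels of 818, 888 and 557. Derl3, a degradation factor known from secretory cells, was near 0 in all 6 classes.

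**Figure D1:**
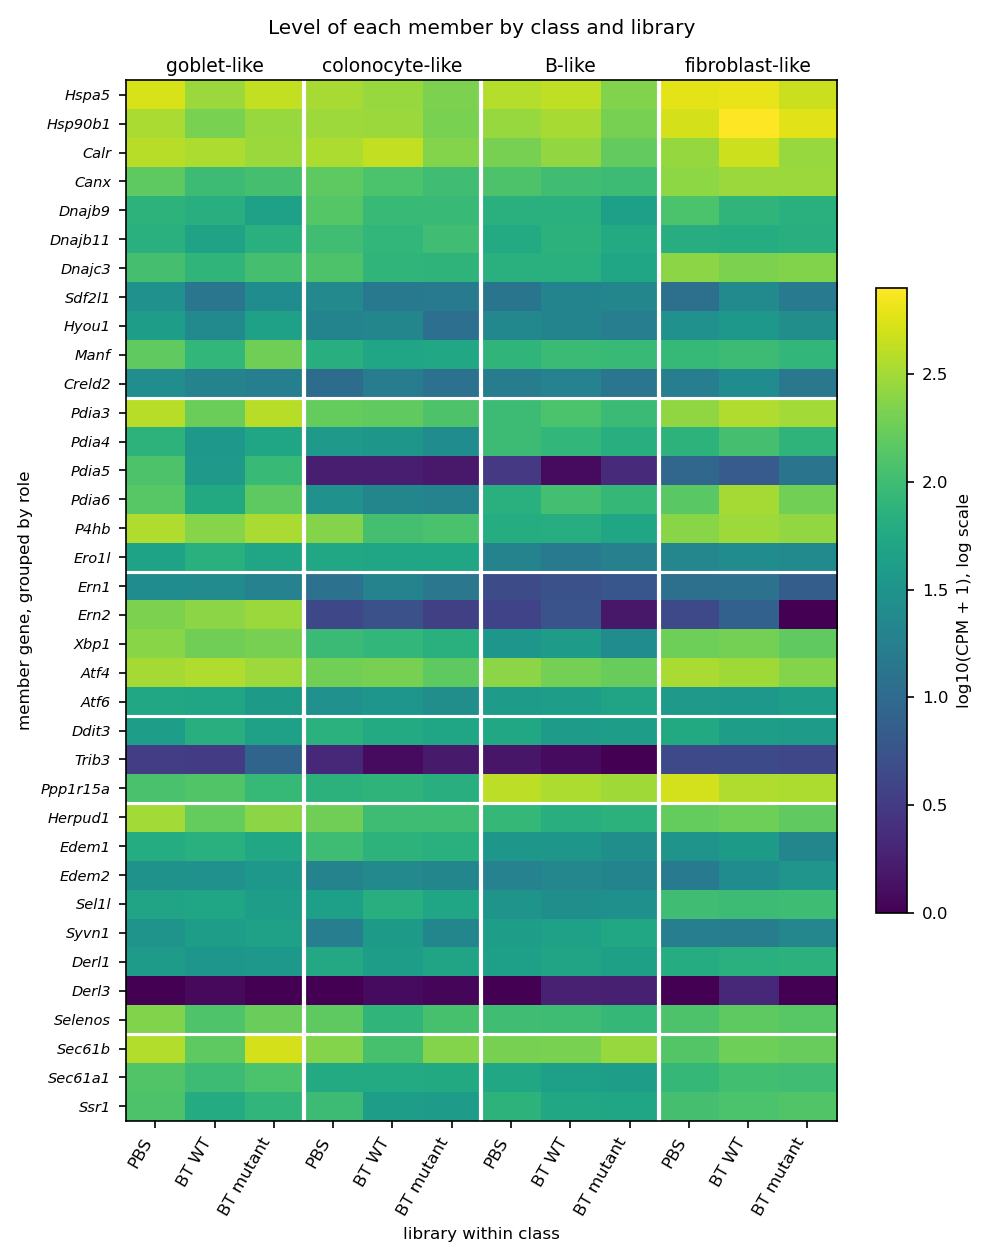
Level of each of the 36 genes, ordered by role, in the 3 libraries of the goblet-, colonocyte-, B- and fibroblast-like classes, as log10(CPM + 1) in colour. The Ern2 and Pdia5 rows are bright only under goblet-like cells, while Hspa5, Hsp90b1 and Calr are bright under all 4 classes.

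Compared with colonocyte-like cells of the same library, the goblet-like cells had a higher median level of these genes, though not in every setting. Of 34 genes tested, 19 were at least 1.5-fold higher and 3 lower in the PBS library, 11 higher and 1 lower in the BT WT library, and 16 higher and 1 lower in the BT mutant library. Over all genes the shares that were higher were 17.8%, 7.83% and 15.1%, and the shares that were lower 14.5%, 9.31% and 15.6%. The members' median log2 ratios were 0.61, 0.21 and 0.54. Without the Mptx1/Spink4-led goblet-like cells, described further on, the BT mutant median was 0.02 and the PBS median 0.25, and with the Clca1/Zg16-led cells alone the BT mutant median was -0.10, so the order of the libraries holds for the whole class only. The goblet-like cells of the BT WT library had the highest sum of colonocyte markers, and the part of those markers in the result was not tested. In all 3 libraries 9 of the 34 were higher, against 6.18% of all genes, namely Sec61a1, Ern2, Herpud1, Manf, Xbp1, P4hb, Pdia6, Atf4 and Pdia5. In all 3 libraries 0 of the 34 were lower, against 7.73% of all genes.

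Ern2 stood 66.8-fold (95% interval 47.7 to 95.9), 59.7-fold (47.4 to 76.1) and 112-fold (83.2 to 153) above the colonocyte-like level, for PBS, BT WT and BT mutant in turn. With cells thinned to 1000 UMIs, so that depth is equal, and shallower cells left out (7, 36 and 8 goblet-like and 5, 111 and 84 colonocyte-like cells), 24.5%, 24.1% and 30.3% of goblet-like cells had an Ern2 UMI, against 0.260%, 0.478% and 0.237% of colonocyte-like cells. The unthinned shares were 79.5%, 72.0% and 70.1% against 5.39%, 2.06% and 1.55%. The thinned share was thus far higher in goblet-like than in colonocyte-like cells of each library. Goblet markers summed to 2241, 2436 and 530 CPM in colonocyte-like cells. They were lowest in BT mutant, where the Ern2 fold was largest, and their part in the folds was not tested. Xbp1, the transcription factor that IRE1 activates, was at 238, 185 and 198 CPM in goblet-like cells and at 93.0, 82.1 and 67.4 in colonocyte-like cells. Atf4, the effector of PERK, was at 319, 356 and 299 CPM against 191, 198 and 149.7.

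**Figure D2:**
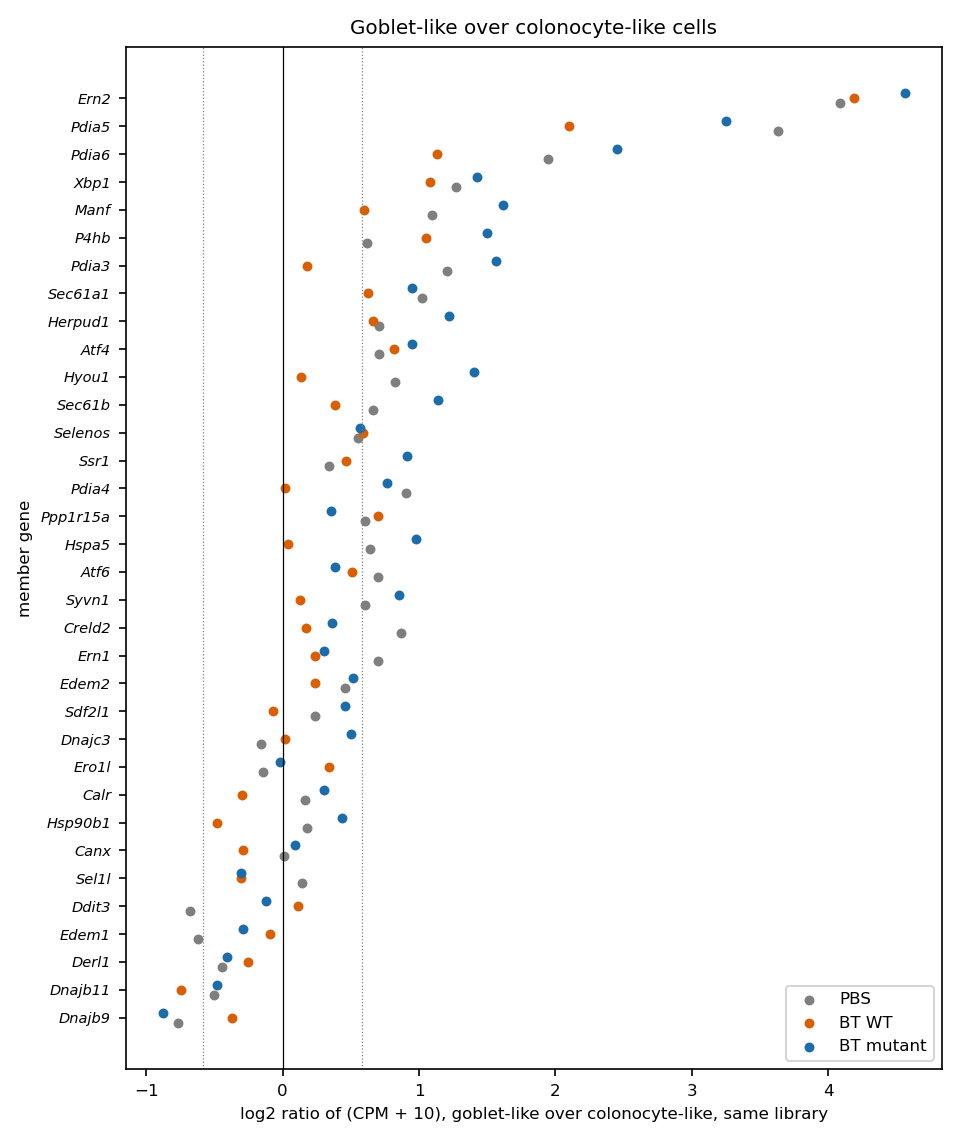
Log2 ratio of goblet-like over colonocyte-like CPM (each + 10) for each gene, with 1 point per library. Ern2 and Pdia5 lie farthest right, and the BT WT points of most genes lie nearest to 0.

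In goblet-like cells, 12 of the 20 chaperones, disulfide enzymes and translocon subunits were lower in the BT WT library than in the PBS library, while none of the sensors passed the threshold. Of 34 genes tested, 14 were at least 1.5-fold lower and 0 higher, where 10.1% of all genes were lower and 9.03% higher. The count was 7 without the cells of the class that were rich in colonocyte RNA, 8 in cells with at least 10000 UMIs and 9 in the Clca1/Zg16-led cells alone. The members' median log2 ratio was -0.40, against 0.00 over all genes. Among chaperones 6 of 11 were lower (median -0.61), among disulfide enzymes 4 of 6 (-1.02), among degradation factors 2 of 7 (-0.06) and among translocon subunits 2 of 3 (-0.94). None of the 5 sensors and transcription factors was (-0.02).

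Hspa5 (BiP, the main Hsp70 chaperone of the ER, chr2:34771970-34777547 on the plus strand of GRCm38) was 1.79-fold lower in the BT WT library than in the PBS library (1.65 to 1.95), with the BT mutant library in between. Hsp90b1, the ER's Hsp90 (GRP94), was at 336, 206 and 279 CPM and was 1.63-fold lower (1.47 to 1.81). Calr (calreticulin, a chaperone of glycoproteins) differed less, at 389, 347 and 285 CPM, with a log2 ratio of -0.16. The disulfide enzymes were farther apart. Pdia5 was 3.41-fold lower (2.80 to 4.17). Pdia6 was at 138, 56.3 and 149 CPM and 2.45-fold lower (2.05 to 2.91), and Pdia3, which works with calreticulin, was at 389, 178 and 383 CPM and 2.19-fold lower (1.98 to 2.41). P4hb, another disulfide isomerase, was at 358, 236 and 340.2 CPM. For all 4 enzymes the PBS and BT mutant values lay above the BT WT value. Ero1l, the oxidase that recharges these enzymes, had the opposite order, at 47.3, 67.7 and 49.0 CPM.

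Sec61b, the β subunit of the translocon (chr4:47474658-47483242), was at 364, 151 and 517 CPM and 2.42-fold lower in BT WT than in PBS (2.17 to 2.68). Ssr1, a subunit of the translocon-associated protein complex, was at 123, 59.3 and 79.7 CPM (log2 ratio -0.94). Herpud1, which organises the HRD1 degradation complex, was at 309, 162 and 245 CPM (log2 ratio -0.89), whereas the degradation factors Edem1 (60.7, 67.7 and 53.6 CPM) and Sel1l (47.9, 50.02 and 39.9 CPM) were alike in the 3 libraries. The sensors and factors gave log2 ratios of -0.02 for Ern1, 0.21 for Ern2, -0.07 for Atf6, 0.16 for Atf4 and -0.35 for Xbp1. Ern1 was at 24.5, 24.0 and 18.4 CPM and Atf6 at 52.5, 49.7 and 36.8. Ddit3 (CHOP) went the other way, at 40.3, 64.3 and 44.5 CPM from its 2 overlapping identifiers, of which 1 had 0 UMIs. Its fold was 1.60 (1.23 to 2.10) higher in BT WT, but its log2 ratio of 0.56 was under the threshold.

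Between the 2 colonized libraries, 7 of the same 20 genes were higher in BT mutant and 0 lower in this class. Of 34 genes tested, 7 were at least 1.5-fold higher and 0 lower, where 10.6% of all genes were higher and 9.6% lower, and the median was 0.25 against -0.04 over all genes. The median was -0.06 and the count 4 with cells thinned to 1000 UMIs. The 7 were Sec61b (3.43-fold, 3.01 to 3.89), Pdia6 (2.64-fold, 2.08 to 3.33), Pdia5 (2.51-fold, 1.84 to 3.37), Manf (2.25-fold, 1.82 to 2.76), Pdia3 (2.15-fold, 1.87 to 2.48), Hyou1 and Sdf2l1. Manf, an ER protein that binds BiP and can be secreted, was at 153, 81.8 and 184 CPM. Hspa5 was 1.47-fold higher (1.29 to 1.67), just under the threshold. Dnajb9 (log2 ratio -0.50), Ero1l (-0.40) and Calr (-0.27) were lower by less than the threshold. The sensors and factors gave -0.26 for Ern1, 0.20 for Ern2, 0.09 for Xbp1, -0.25 for Atf4, -0.35 for Atf6 and -0.45 for Ddit3. This comparison and the previous one share the BT WT library, in the denominator of one and the numerator of the other. BT mutant over PBS gave a median of -0.15, with 0 of 34 genes higher and 1 lower (6.84% and 8.25% of all genes).

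The other genes of the pathway gave these counts in goblet-like cells, where over all genes 10.1% were lower and 9.03% higher for BT WT over PBS, and 9.6% lower and 10.6% higher for BT mutant over BT WT. Their lists were chosen with earlier results of these data known and are not independent of the members. For BT WT over PBS, 15 of 27 other translocation, signal peptidase and glycosyl transfer genes were lower (median -0.61), 8 of 22 other folding genes (-0.45), 5 of 27 ER to Golgi transport genes (-0.38) and 1 of 18 other degradation genes (-0.01). For BT mutant over BT WT, 17 of 27, 10 of 22, 10 of 27 and 1 of 18 were higher, with medians of 0.73, 0.48, 0.49 and -0.09. Import, folding and transport genes thus had the larger differences and degradation genes the smaller ones. Agr2, a disulfide isomerase known to be needed for mucin production, was at 3878 CPM in PBS, 1307 in BT WT and 6112 in BT mutant. Lman1, a cargo receptor between ER and Golgi, was at 88.7, 22.3 and 99.6 CPM, and Sec61g, another translocon subunit, at 579, 231 and 487. Golgb1, the most abundant transport gene, was at 395, 437 and 439.9 CPM.

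For the next 3 lists too, 10.1% of all genes were lower and 9.03% higher for BT WT over PBS. For BT mutant over BT WT, 9.6% were lower and 10.6% higher. Targets of the integrated stress response, which ATF4 drives, gave a median of -0.20 for BT WT over PBS (3 of 28 lower) and -0.02 for BT mutant over BT WT (4 higher and 3 lower). A list of dissociation stress genes, which tissue digestion is known to induce, gave -0.34 with 2 higher and 3 lower of 20, and then -0.28 with 1 higher and 3 lower. The goblet cargo genes gave -0.54 (5 of 11 lower and 2 higher) and 0.89 (6 of 12 higher and 1 lower). The median of the cargo list thus had the same sign as those of the folding and import genes in both comparisons. Single cargo genes went either way. In the Clca1/Zg16-led cells, described below, Muc2 was at 14352 CPM in PBS and 25610 in BT WT. Clca1 was at 17615 and 29665 there, and Zg16 at 71602 and 46376. The list also holds Mptx1 and Spink4, which lead goblet-like cells whose share differed between libraries. The part of that share was not tested.

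The goblet-like class was made of 3 kinds of cells whose shares differed between the libraries, as did their levels of these genes. Cells led by Clca1 and Zg16 numbered 114, 520 and 71. Cells led by Clca1 but rich in colonocyte RNA numbered 5, 282 and 20. Cells led by Mptx1 and Spink4 numbered 27, 27 and 16, which is 18.5%, 3.26% and 14.95% of the class, yet with medians of 27410, 19071 and 13435 UMIs they gave 39.1%, 11.2% and 37.6% of its UMIs. The 36 genes together made up 7261, 7441 and 8434 CPM in the Mptx1/Spink4-led cells, 4199, 3544 and 2954 CPM in the Clca1/Zg16-led cells and 3670, 3019 and 2740 CPM in the cells rich in colonocyte RNA. The summed level of the Mptx1/Spink4-led cells was thus the highest in every library. The Mptx1/Spink4-led cells are few, and each gives many UMIs, so their intervals are too narrow for differences between cells.

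**Figure D3:**
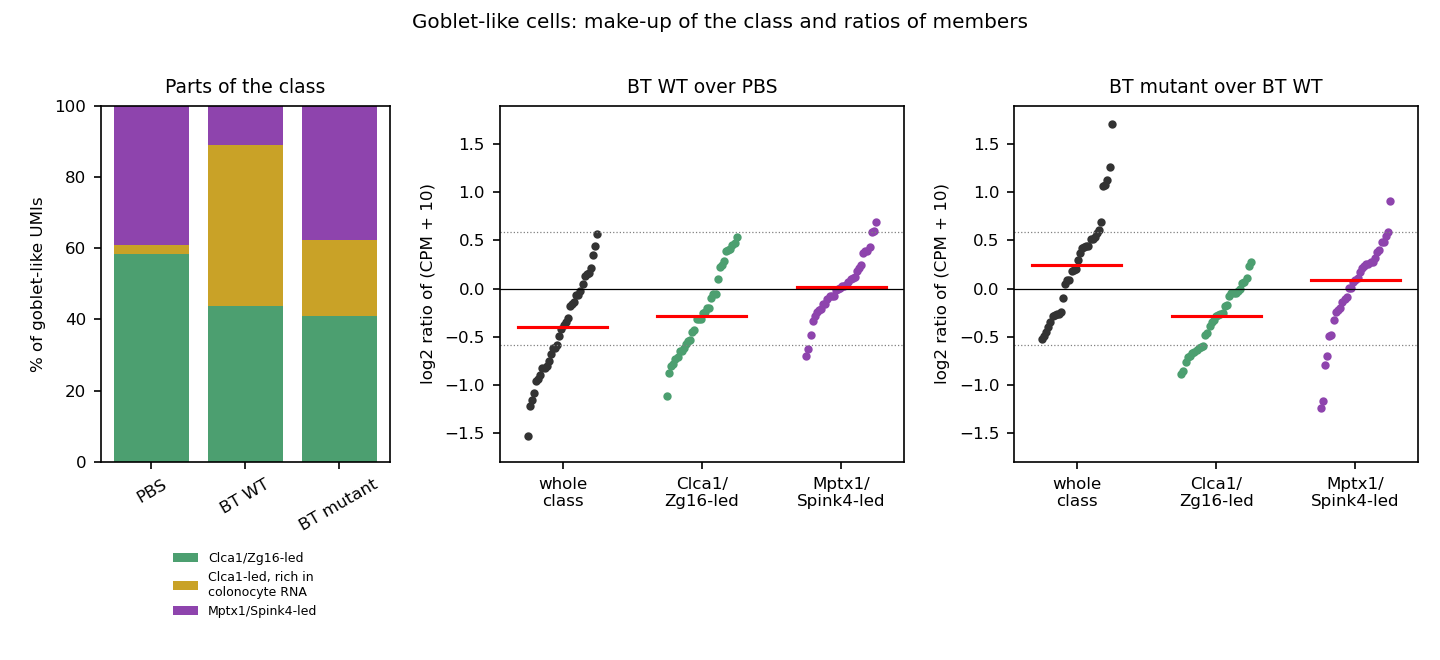
Left, percent of the class's UMIs from each kind of goblet-like cell in each library. Middle and right, log2 ratio of (CPM + 10) of each gene tested (1 point per gene, red line at the median, dotted lines at 1.5-fold) in the whole class and in its Clca1/Zg16-led and Mptx1/Spink4-led cells: for BT mutant over BT WT the median is 0.25 in the class, -0.28 in the Clca1/Zg16-led cells and 0.08 in the Mptx1/Spink4-led cells.

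Within each library, the Mptx1/Spink4-led cells had a higher median level of the members than the Clca1/Zg16-led cells. Levels were at least 1.5-fold higher for 17 of 34, 21 of 34 and 20 of 26 genes tested, with medians of 0.58, 0.96 and 1.26. The medians over all genes were 0.24, 0.10 and 0.25. Over all genes 33.9%, 31.5% and 42.1% were higher. Lower were 1, 3 and 4 of these genes, against 16.4%, 22.4% and 27.3% of all genes. Sec61b was at 733, 832 and 1260 CPM against 130.1, 71.3 and 67.1, a fold of 5.63 (4.63 to 6.89), 11.7 (9.78 to 13.98) and 18.8 (11.7 to 32.1). Pdia5 was at 252, 253 and 212 CPM against 41.0, 13.6 and 18.7. Pdia6 was at 248, 288 and 347 CPM against 70.05, 38.2 and 29.8. For Sec61b, Pdia5 and Pdia6 every value of the Mptx1/Spink4-led cells lay above every value of the Clca1/Zg16-led cells. Hspa5 was at 729.7, 692 and 783 CPM against 390.3, 266 and 190.2, a fold of 1.87 (1.63 to 2.14), 2.61 (2.30 to 2.95) and 4.12 (3.01 to 5.72). Agr2, outside the 36, was at 7949, 8241 and 15576 CPM against 1314, 694 and 518.

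Not all members were higher in the Mptx1/Spink4-led cells. Ero1l was at 40.3, 36.7 and 44.8 CPM there against 51.04, 71.3 and 52.2, and Dnajb9 at 67.2, 66.7 and 44.8 against 78.1, 66.6 and 37.3. Ern2 was at 170.1, 223 and 224 CPM in the Mptx1/Spink4-led cells and at 246, 329 and 388 in the Clca1/Zg16-led cells, a fold of 0.691, 0.679 and 0.578 with every interval under 1. Atf4 was at 279, 285 and 171 CPM against 337, 402 and 395. The goblet-type IRE1 and ATF4 were thus higher in the cells with the lower chaperone levels. Xbp1 was at 296, 352 and 306 CPM against 205, 197 and 160.4, on the side of the chaperones. Muc2, the mucin, was at 7613, 8256 and 25955 CPM in the Mptx1/Spink4-led cells against 14352, 25610 and 31359 in the Clca1/Zg16-led cells. Colonocyte markers, at 10328, 11432 and 7795 CPM in the Clca1/Zg16-led and 1926, 1695 and 1569 in the Mptx1/Spink4-led cells, moved with this contrast, and their part in it was not tested.

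**Figure D4:**
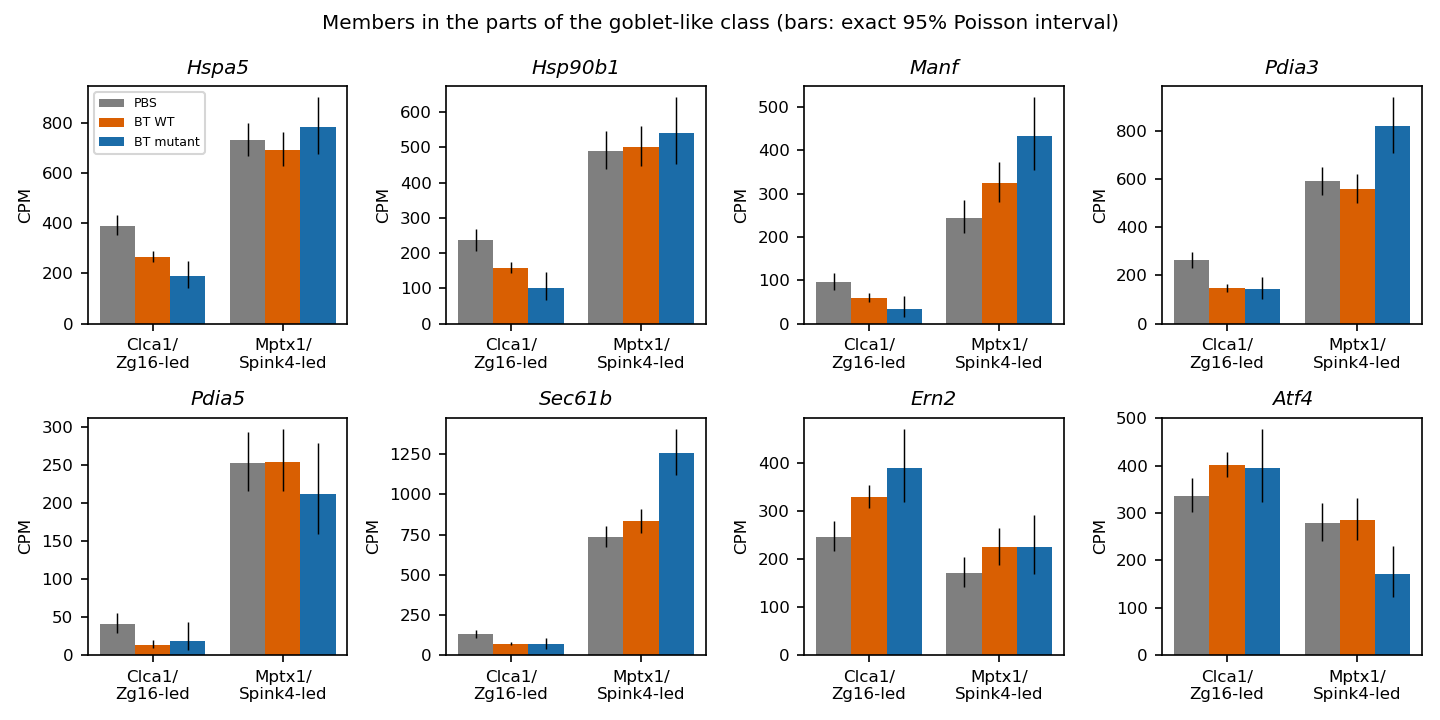
CPM of selected genes in the Clca1/Zg16-led and the Mptx1/Spink4-led goblet-like cells (linear axis from 0), with 1 bar per library and exact Poisson 95% intervals. The Sec61b, Pdia5 and Hspa5 bars are taller in the Mptx1/Spink4-led cells in all 3 libraries, and the Ern2 and Atf4 bars are shorter.

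The higher median of BT mutant over BT WT in goblet-like cells was not seen in the Clca1/Zg16-led cells, and it was near 0 in the Mptx1/Spink4-led cells. In the Clca1/Zg16-led cells alone the median for BT mutant over BT WT was -0.28 (-0.10 over all genes), with 0 of 33 genes higher and 11 lower (6.53% of all genes were higher and 14.1% lower). Hspa5 was 390.3, 266 and 190.2 CPM there, Hsp90b1 236, 159 and 101, Calr 351, 294 and 190.2, and Manf 96.1, 59.4 and 33.6. For these 4 genes the BT mutant value was the lowest, from 51, 27, 51 and 9 UMIs. Hyou1 was at 26.0, 24.6 and 26.1 CPM and did not share that order. Sec61b (log2 ratio -0.08) and Pdia3 (-0.05) were alike in the 2 colonized libraries, and Pdia5 rested on 5 and 32 UMIs. In the Mptx1/Spink4-led cells the median was 0.08, with 2 genes higher and 4 lower of 33 (9.53% and 17.1% of all genes). In the cells rich in colonocyte RNA it was -0.15, from 20 BT mutant cells. Without the Mptx1/Spink4-led cells, the whole class gave a median of -0.21 and 0 genes higher. The share of the cells rich in colonocyte RNA also differed, at 45.0% of BT WT and 21.3% of BT mutant UMIs of the class. Within the Mptx1/Spink4-led cells, Sec61b was at 832 CPM in BT WT and 1260 in BT mutant. The part of each of these in the result for the whole class was not tested.

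The lower levels in BT WT than in PBS were present, with smaller medians, in the Clca1/Zg16-led cells alone. The median was -0.28 (0.04 over all genes), with 9 of 34 lower and 0 higher, where 6.02% of all genes were lower and 5.87% higher. The 9 were Canx, Sdf2l1, Manf, Pdia3, Pdia4, Pdia5, Pdia6, Sec61b and Ssr1. Hspa5 was 0.681-fold (0.599 to 0.774), Pdia3 0.558-fold (0.474 to 0.657) and Sec61b 0.548-fold (0.433 to 0.694). Ern2 was 1.34-fold (1.16 to 1.55) and Atf4 1.19-fold (1.05 to 1.35). In the Mptx1/Spink4-led cells the median was 0.02, with 3 genes higher and 2 lower of 34 (6.01% and 8.13% of all genes). Against PBS, the BT mutant Clca1/Zg16-led cells gave a median of -0.70, with 19 of 34 genes lower and 1 higher (17.6% and 9.56% of all genes). Median depth in these cells was 8473, 4386 and 3786 UMIs, in the same order, and its part in the result was not tested.

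In colonocyte-like cells the members were less far apart than in goblet-like cells in the values reported, though not in every setting. For BT WT over PBS, 6 of 34 genes were lower and 1 higher, where 8.5% of all genes were lower and 12.5% higher, with a median of -0.12 (0.07 over all genes). Ssr1 was at 95.3, 40.2 and 37.8 CPM (log2 ratio -1.07), P4hb at 229.8, 109 and 114 (-1.02) and Sec61b at 226, 113 and 229 (-0.94). Herpud1, Selenos, a partner of the degradation machinery, and Dnajc3, an inhibitor of the PERK arm, were also lower. Syvn1, the HRD1 ubiquitin ligase, was higher, at 16.5, 36.9 and 20.2 CPM, a fold of 2.24 (1.91 to 2.63). Hspa5 was at 330.4, 282 and 212 CPM, Hsp90b1 at 296, 292 and 204, and Calr at 347, 428 and 229. The median changed sign with the depth and the mitochondrial limit: it was 0.18 in cells with at least 10000 UMIs and 0.11 under a limit of 10%. With each cell given equal weight it was -0.359, and more genes were then lower than in the values reported. No direction is thus given for this class.

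For BT mutant over BT WT in colonocyte-like cells, 1 of 34 genes was higher and 2 lower, where 5.13% of all genes were higher and 4.39% lower, with a median of -0.13 (-0.05 over all genes). Sec61b was 2.02-fold higher (1.92 to 2.12). Calr was 1.87-fold lower, and Syvn1 had a log2 ratio of -0.64. Against PBS, 5 of 35 genes were lower and 0 higher in BT mutant (3.77% and 4.82% of all genes), with a median of -0.36. The sensors and factors stood at 11.3, 18.9 and 13 CPM for Ern1, 28.5, 32 and 25.8 for Atf6, and 70.4, 58.6 and 49.2 for Ddit3. Ern1, Atf6 and Ddit3 were lower in BT mutant than in BT WT, each by less than 1.5-fold.

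In B-like cells no gene reached the threshold between BT WT and PBS (0 of 33 higher and 0 lower, where 2.1% and 1.55% of all genes did), and the median was 0.05. Pdia6 came nearest, at 67.9, 106 and 83.3 CPM. Between BT mutant and BT WT, 4 of 33 genes were lower and 0 higher, where 2.42% of all genes were lower and 0.99% higher, and the median was -0.19. All 4 are ER chaperones or a co-chaperone. Different clusters held the most B-like cells in each library (721, 614 and 916 cells). Whether these clusters are different kinds of B-like cells was not tested. Hspa5 was at 372, 417 and 221 CPM and 1.89-fold lower (1.74 to 2.05), Calr at 199.5, 269.6 and 156 and 1.73-fold lower, Hsp90b1 at 281, 332 and 203 and 1.64-fold lower, and Dnajb9, a co-chaperone of BiP, at 68.1, 68.9 and 42.5 and 1.62-fold lower. For each of the 4 genes the BT mutant value was the lowest of the 3. Against PBS, 1 of 32 genes was lower and 0 higher (5.2% and 2.48% of all genes), with a median of -0.23. Sec61b was not one of the lower genes, at 198, 205 and 283 CPM. Ppp1r15a, which ends the block on protein synthesis, was at 402, 351 and 303 CPM, Atf4 at 246, 196 and 165, Xbp1 at 32, 38.9 and 25, Atf6 at 39.2, 41.4 and 47.9, Ddit3 at 51.9, 37.8 and 39.6, and Ern1 at 3.61, 4.29 and 4.95. The dissociation stress list gave a median of -0.29 for the same comparison. Goblet markers, which B cells should lack, summed in B-like cells to 1128, 1419 and 275 CPM. The part of either in the result was not tested, and the B-like levels of Ern2 (2.84, 4.51 and 0.521 CPM) moved with those markers.

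In fibroblast-like cells, which secrete collagens, 4 of 33 genes were higher in BT WT than in PBS and 0 lower, where 4.89% of all genes were higher and 4.53% lower, and the median was 0.15. Pdia6 was at 141, 319 and 189 CPM and 2.27-fold higher (1.93 to 2.67), Calr at 271, 479 and 278 and 1.76-fold higher, Hsp90b1 at 511, 789.7 and 591 and 1.55-fold higher. Sdf2l1, a partner of BiP's co-chaperones, was at 10.8, 23.6 and 14.7 CPM. All 4 had their highest value in the BT WT library, where Pdia6, Sdf2l1 and Hsp90b1 had their lowest value in goblet-like cells. Goblet markers in fibroblast-like cells summed to 664, 2081 and 184 CPM and were also highest in BT WT, and their part in the result was not tested. Between BT mutant and BT WT, Calr (log2 ratio -0.76), Pdia6 (-0.73) and Edem1, a mannosidase-like degradation factor (-0.62), were lower and 0 were higher, 3 of 33 in all. Over all genes 2.64% were lower and 1.92% higher, and the members' median was -0.15. Against PBS, 1 of 33 genes was higher and 1 lower (2.83% and 3.84% of all genes), with a median of 0.04.

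The cargo of these cells differed with the same signs. The 14 collagen and matrix genes of the cargo list summed to 27229, 32605 and 28571 CPM, with a median ratio of 0.30 for BT WT over PBS (5 of 14 higher) and -0.55 for BT mutant over BT WT (5 of 14 lower). Over all genes, 4.89% were higher in the first of these comparisons and 2.64% lower in the second. Hspa5 was at 595, 626 and 467 CPM and Ppp1r15a at 501, 356 and 351. The sensors and factors were at 10.8, 11.5 and 6.20 CPM for Ern1, 181, 194 and 153 for Xbp1, 341, 301 and 226 for Atf4, 36.4, 34.5 and 41.4 for Atf6, and 56.6, 40.8 and 39.5 for Ddit3. Atf4 and Ddit3 were thus highest in the PBS library, as was Dnajb9 at 118, 77.6 and 68.2 CPM.

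**Figure D5:**
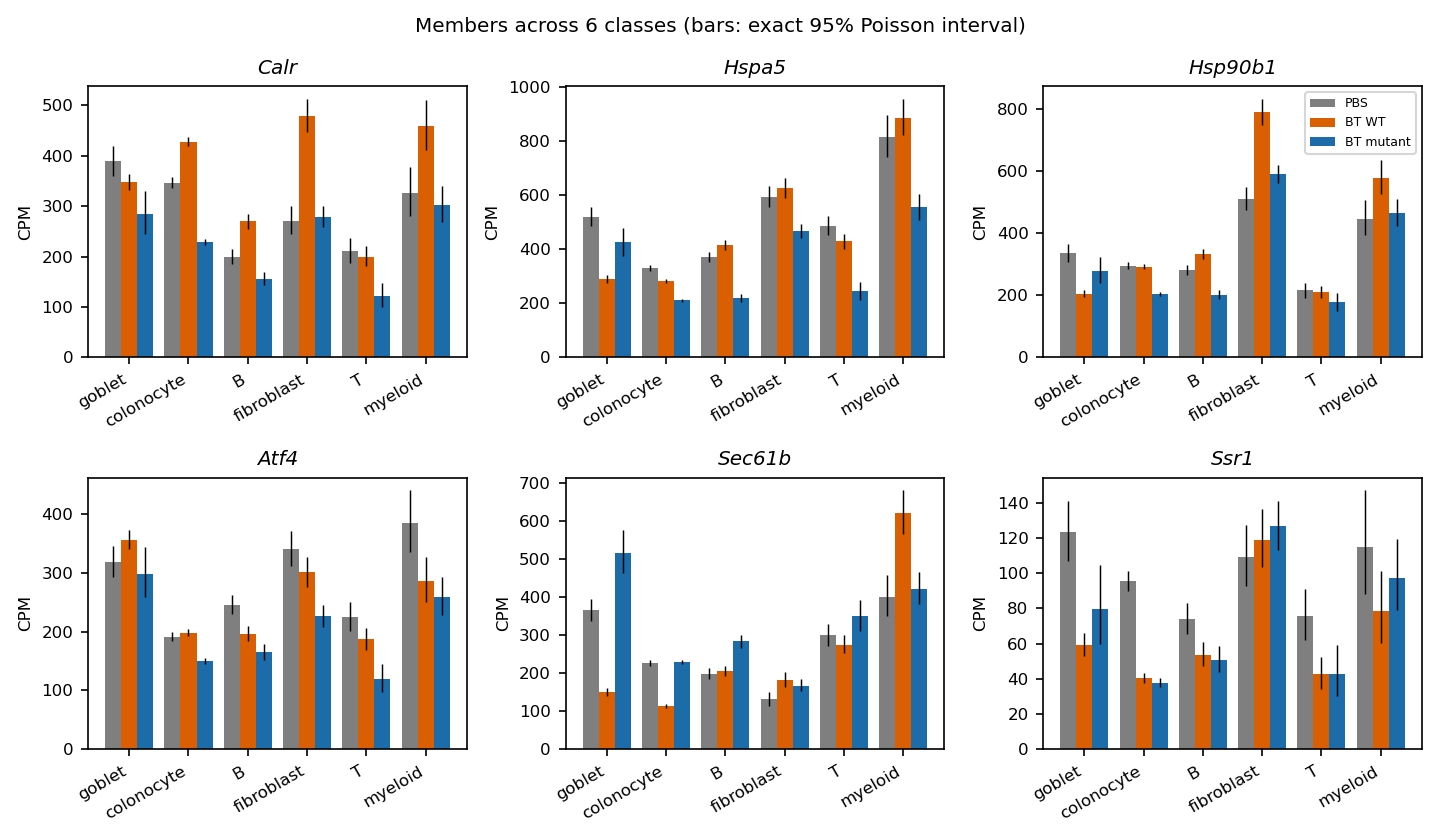
CPM of selected genes in the 6 classes (linear axes from 0), with 1 bar per library and exact Poisson 95% intervals. For Hspa5, the BT mutant bar is lower than the BT WT bar in 5 classes and taller in goblet-like cells.

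The 2 remaining classes gave small medians. In T-like cells, 0 of 32 genes were higher and 1 lower for BT WT over PBS (1.55% and 6.04% of all genes), 2 higher and 4 lower for BT mutant over BT WT (5.76% and 4.26%), and 2 higher and 6 lower for BT mutant over PBS (4.62% and 9.53%). The medians were -0.07, -0.14 and -0.22. In myeloid-like cells, 5 of 32 were higher and 1 lower for BT WT over PBS (10.4% and 9.05%), 0 higher and 4 lower for BT mutant over BT WT (6.34% and 7.77%), and 1 higher and 3 lower for BT mutant over PBS (10.5% and 9.93%), with medians of 0.18, -0.21 and -0.11. Sdf2l1 was the farthest apart there, at 29.2, 90.5 and 77.0 CPM.

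Across the 6 classes, a few members differed the same way in nearly all of them. For BT mutant over BT WT, with an interval that leaves out a ratio of 1, Calr was lower in 6 of 6 classes, Hspa5 and Atf4 in 5, and Hsp90b1, Xbp1 and Ppp1r15a in 4. Of all genes tested in the 6 classes, 1.92% were lower in at least 5. The share of all genes that differed in 4 classes was not computed, so the members named for 4 have no background. Hspa5 was higher in the remaining class, goblet-like cells, and in those cells it was lower once only the Clca1/Zg16-led cells were counted (0.716-fold, 0.527 to 0.954). T-like Hspa5 was at 488, 429 and 246 CPM and myeloid-like Hspa5 at 818, 888 and 557. T-like Calr was at 211, 199.6 and 122 CPM and myeloid-like Calr at 327, 459 and 303. Sec61b went the other way and was higher in BT mutant in 4 classes, the most of any member. In at least 5 classes, 2.64% of all genes were higher. A difference that unlike classes of 1 library share cannot be told apart from a property of that library.

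For BT WT over PBS the classes were less alike. Ssr1 was lower in 5 of 6 classes and was the only member lower in at least 5, where 2.49% of all genes were. Calr and Pdia6 were higher in 4, the most of any member, and the share of all genes higher in 4 was not computed. In at least 5 classes, 1.24% of all genes were higher. For BT mutant over PBS, Hspa5 and Dnajb9 were lower in all 6 classes and Atf4 in 5, where 3.38% of all genes were lower in at least 5. Each of the 3 comparisons uses a library of another, so they are not independent.

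The genes with an ER stress response element in the promoter can be set beside those without. In goblet-like cells, the 10 with either form that were tested had a median of -0.56 for BT WT over PBS and 0.43 for BT mutant over BT WT, and the 18 with neither in a promoter that was found had -0.25 and 0.15. For BT mutant over BT WT the medians with and without were -0.32 and -0.19 in B-like cells, -0.32 and -0.13 in fibroblast-like cells, -0.36 and -0.21 in myeloid-like cells, -0.25 and -0.08 in colonocyte-like cells, and -0.08 and -0.13 in T-like cells. For BT WT over PBS they were 0.16 and -0.01 in B-like cells, 0.16 and 0.14 in fibroblast-like cells, 0.17 and 0.22 in myeloid-like cells, -0.24 and -0.12 in colonocyte-like cells, and -0.07 and -0.13 in T-like cells. The medians with the element lay nearer to 0 in T-like cells for both comparisons and in myeloid-like cells for the second. These medians describe 10 genes and were not tested.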

How the data were processed

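The data were raw UMI counts of 3 10x Chromium 3' libraries (v3 chemistry, per the labels' protocols). The deposited counts came from Cell Ranger 5.0.0, per the file headers, and STAR and mm10 are named in the submitters' processing notes. For the annotation release and the cell calling settings, the sources used here give nothing. Cells with at least 300 genes and at most 25% mitochondrial UMIs were normalized to 10000 UMIs and clustered (2000 variable genes, 30 principal components, 15 neighbours, Leiden resolution 1; scanpy 1.11.5, leidenalg 0.10.2). A cluster was named from 18 marker sets when its best score was at least 1.5, at least 3 markers were detected and the second score was at most 0.4 of the best (0.6 in sub-clusters). That naming rule was set after the clusters were seen. Clusters that failed that rule, or whose median UMI count was below their own library's divided by 3, stayed unnamed. In all, 30.7%, 7.98% and 12.1% of cells had no name, with median UMI counts of 1019, 4633 and 3235. Doublets were kept in the values reported. A doublet cut at a fixed rate, used as an alternative, took 1 goblet-like cell from PBS, 113 from BT WT and 7 from BT mutant. UMIs were summed per class and library and divided by the class total. Exact intervals came from scipy 1.17.1. The fold step was checked on simulated data.

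The 36 genes, the lists and the roles were chosen with earlier results of these data known. The genes named in each class were the 5 most abundant members, the 3 farthest apart on each side (at least 1.5-fold), all sensors and transcription factors, and single genes of the other lists, which were named for goblet-like cells only. Genes named beyond this rule were chosen after their values were seen. The alternatives tried were 10 settings listed at the start and 5 added after the data were seen. Promoters came from the RefSeq table of GRCm38.p6 and gene positions from GENCODE on GRCm38. Doublet rates, plasma-, tuft- and stem-like cells, with under 50 cells in a library, were left out of the comparisons.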

Additional observations from a re-analysis of the deposited data

How the results depend on the processing

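Each result was computed again under 10 settings listed at the start and 5 chosen after the data were seen, where at least 30 cells per library remained. Of the medians and counts, 148 alternative values stayed close and 24 moved further. Close meant within 1.5 times for a count. For a median it meant within the median half-width of the single-gene intervals. That width belongs to single genes and not to a median, so a median could change sign and still count as close. A median changed sign in 6 of these alternatives. The median of BT WT over PBS in goblet-like cells stayed between -0.446 and -0.259. The medians in B-like cells (0.032 to 0.111 and -0.22 to -0.137 for the 2 comparisons) and in fibroblast-like cells (0.105 to 0.309 and -0.166 to -0.105) kept their sign as well. The count of goblet-like genes lower in BT WT than in PBS, 14, was 9 in the Clca1/Zg16-led cells alone, 7 without the cells rich in colonocyte RNA and 8 in cells with at least 10000 UMIs. For BT mutant over BT WT in goblet-like cells, the median was -0.283 in the Clca1/Zg16-led cells alone and -0.214 without the Mptx1/Spink4-led cells, with 0 genes higher in both, and -0.057 with cells thinned to 1000 UMIs. The count of 7 higher genes became 4 with equal weight per cell and 4 with cells thinned to 1000 UMIs. In the Clca1/Zg16-led cells alone, Pdia3 (-0.047), Pdia6 (-0.274) and Sec61b (-0.075) reversed, and Hspa5 (-0.461) and Manf (-0.67) also changed sign, as did Pdia3 without the Mptx1/Spink4-led cells (-0.105).

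In colonocyte-like cells the median of BT WT over PBS was 0.105 with 3 genes lower under a mitochondrial limit of 10%, -0.359 with 12 lower at equal weight per cell, -0.304 with 12 lower in thinned cells, and 0.180 with 2 lower in cells with at least 10000 UMIs. The median of BT mutant over BT WT there was -0.310 under the limit of 10% and -0.291 in cells with at least 10000 UMIs. Goblet-like over colonocyte-like cells gave, in the PBS library, 0.296 in thinned cells, 0.265 with the Clca1/Zg16-led cells alone and 0.252 without the Mptx1/Spink4-led cells, and in the BT mutant library -0.097 and 0.018 for the last 2 settings. The cause of these shifts was not tested. The limit of at least 10000 UMIs left too few B-like cells and too few BT mutant goblet-like cells for a value. No paired analysis was possible because each group has 1 library and the labels carry no replicate numbers. Depth limits the weakest members: Trib3 and Derl3 had too few UMIs to be compared in goblet-like cells.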

Other observations

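Plasma-like cells, too few to compare (8 in PBS, 22 in BT WT and 7 in BT mutant), had levels of these genes unlike those of the other classes. Derl3, near 0 elsewhere, was at 0 CPM in PBS, 259.8 in BT WT and 209 in BT mutant plasma-like cells. Xbp1, which plasma cells are known to need, was at 0, 519.6 and 1214 CPM, Hsp90b1 at 299, 3561 and 1193, and Manf at 49.9, 1146 and 607. The 8 PBS plasma-like cells, with a median of 1146 UMIs, thus had 0 UMIs of Derl3 and of Xbp1, which allows a level of up to 149.6 CPM for each, counted as 3 UMIs. The 11 ER chaperones and co-chaperones together were at 897.5 CPM in the PBS, 8970 in the BT WT and 4082 in the BT mutant plasma-like cells.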
